A study of Homo sapiens with 41 samples.

Results

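The genes described here are the numbered zinc finger genes of human chromosome 19, taken as every protein-coding gene of that chromosome whose symbol is ZNF followed by a number in the GENCODE annotation on hg19. There were 246 such genes among 1480 protein-coding genes of chromosome 19, and 1231 of the rest served as the comparison. The remaining 3 are read-through genes that join a ZNF gene to its neighbour, and they were left out. A gene was counted as holding Elongin A where a peak overlapped the gene or the 1 kb on either side of it.

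Elongin A, the largest subunit of the elongation factor Elongin, was mapped in DLD1 cells, a human colorectal adenocarcinoma line. The cells were wild type with no siRNA and were fixed with formaldehyde. CUT&RUN, in which an antibody directs a nuclease to cut the DNA around the bound protein, was done with a goat antibody in 2 replicates beside 1 goat IgG control, and with a mouse antibody in 1 sample beside 1 mouse IgG control. The study's methods do not describe the mouse antibody, and its list was used as labelled. ChIP-seq was done in 1 sample beside 1 input library. Each antibody or assay gave 1 peak list, with 8720 goat list peaks, 2338 mouse list peaks and 186 ChIP-seq peaks over the genome. Chromosome 19 held 357, 117 and 6 of them. The goat list covers both replicates together, so no value below has a replicate error, and the genes of a list are not replicates of each other. Peaks of a list come from bulk cells, where binding in fewer cells and weaker binding in each cell cannot be told apart. The cell line could not be checked against marker genes in peak lists.

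Most ZNF genes encode proteins with a run of C2H2 zinc fingers that reads DNA, and many of these proteins also carry a KRAB domain. The KRAB domain recruits TRIM28, which brings in the H3K9 methyltransferase SETDB1 and the HP1 proteins CBX1, CBX3 and CBX5, and the bound locus is silenced. Many of the targets are retrotransposons, and ZNF91, for instance, silences SVA elements. The family grew by tandem duplication, so that its genes lie in clusters and their finger exons resemble one another. The fingers are usually encoded together in the last coding exon, and this 3' part of the gene is known in many cell types to carry H3K9me3 although the gene is transcribed.

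The following stretches of hg19 sequence show where the strongest and the shared peaks stood. Each is 200 bases of the plus strand centred on a summit, with every CpG dinucleotide in capitals. The first is the summit of the strongest goat list peak at a ZNF gene, upstream of ZNF226, at chr19:44668754-44668953. The second is the summit in the shared promoter of ZNF540 and ZNF571, at chr19:38085762-38085961, and the third is that at the start of ZNF320, at chr19:53400714-53400913. Both of these hold a peak in each CUT&RUN list. The fourth is the strongest mouse list summit at a ZNF gene, upstream of ZNF296, at chr19:45579821-45580020.
ZNF226: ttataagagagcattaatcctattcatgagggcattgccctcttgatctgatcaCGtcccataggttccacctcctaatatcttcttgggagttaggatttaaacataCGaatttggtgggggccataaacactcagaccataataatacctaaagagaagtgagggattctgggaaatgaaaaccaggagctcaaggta
ZNF540 and ZNF571: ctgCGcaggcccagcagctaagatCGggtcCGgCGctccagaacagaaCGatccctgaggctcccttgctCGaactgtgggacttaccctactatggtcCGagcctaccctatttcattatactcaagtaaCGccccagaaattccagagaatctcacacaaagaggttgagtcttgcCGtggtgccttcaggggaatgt
ZNF320: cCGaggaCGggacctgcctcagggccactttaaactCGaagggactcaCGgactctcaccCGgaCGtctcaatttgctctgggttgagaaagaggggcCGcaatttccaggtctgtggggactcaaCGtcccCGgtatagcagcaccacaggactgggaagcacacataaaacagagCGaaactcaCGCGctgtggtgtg
ZNF296: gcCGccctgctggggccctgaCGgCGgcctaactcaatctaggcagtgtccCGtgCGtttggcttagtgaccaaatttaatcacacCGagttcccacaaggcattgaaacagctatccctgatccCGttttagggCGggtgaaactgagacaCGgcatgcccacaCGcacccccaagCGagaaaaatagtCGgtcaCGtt
The ZNF226 stretch was the poorest in CpG, with 2 in 200 bases and a GC content of 41.5%. The shared ZNF540 and ZNF571 stretch held 9 CpG, that of ZNF320 held 12 and that of ZNF296 held 13.

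Fewer ZNF genes than other genes held an Elongin A peak in the goat list, and in the mouse list the shares lay close together. In the goat list 30 of 246 ZNF genes had a peak, or 12.2% (95% Wilson interval 8.68 to 16.9), against 20.4% of all 1477 genes compared. The other genes stood at 22.0% (19.8 to 24.4), so the ZNF genes were lower by 9.82 percentage points (95% Newcombe interval of the difference -14.08 to -4.64). In the mouse list 18 ZNF genes had a peak, or 7.32% (4.68 to 11.3), against 8.19% of all genes compared and 8.37% of the others. With peaks of a fold enrichment of at least 5 only, 6.10% of ZNF genes and 9.83% of the others had a goat list peak, and the interval of that difference, -6.70 to 0.29, includes 0. The mouse list difference was -1.05 percentage points, with an interval of -4.18 to 3.15 that includes 0. The ChIP-seq list held no peak at any of the 246 ZNF genes, where 0.203% of all genes compared had one. Its 3 occupied genes on chromosome 19 were WIZ, LRRC25 and PDCD5. Intervals cover counting error only, and genes that share a peak are not independent. Whether the 2 CUT&RUN lists differ in this gap was not tested.

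Peaks were classed by the gene's promoter (1000 bp upstream to 100 bp downstream of an annotated start), its 3' end (100 bp upstream to 1000 bp downstream of an annotated end) or the gene body between. In the goat list 18 ZNF genes had a promoter peak, or 7.32%, against 12.1% of all genes compared. Gene bodies held a peak in 12 ZNF genes, or 4.88%, against 8.19%. The 3' ends held one in 3, or 1.22%, against 3.52%. Other genes stood at 13.1%, 8.85% and 3.98% in the same order, so the ZNF genes were lower in each window of the goat list. In the mouse list 10 ZNF genes had a promoter peak, or 4.07%, against 3.93% of all genes compared. Gene bodies held a mouse list peak in 8 ZNF genes, or 3.25%, against 3.45%. No ZNF gene had a mouse list peak at its 3' end, where 1.46% of the other genes did. ZNF genes on other chromosomes, 262 in number, had a goat list peak in 15.6% and a mouse list peak in 4.96% of cases, where all 20163 protein-coding genes of the genome stood at 21.7% and 7.79%.

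**Figure D1:**
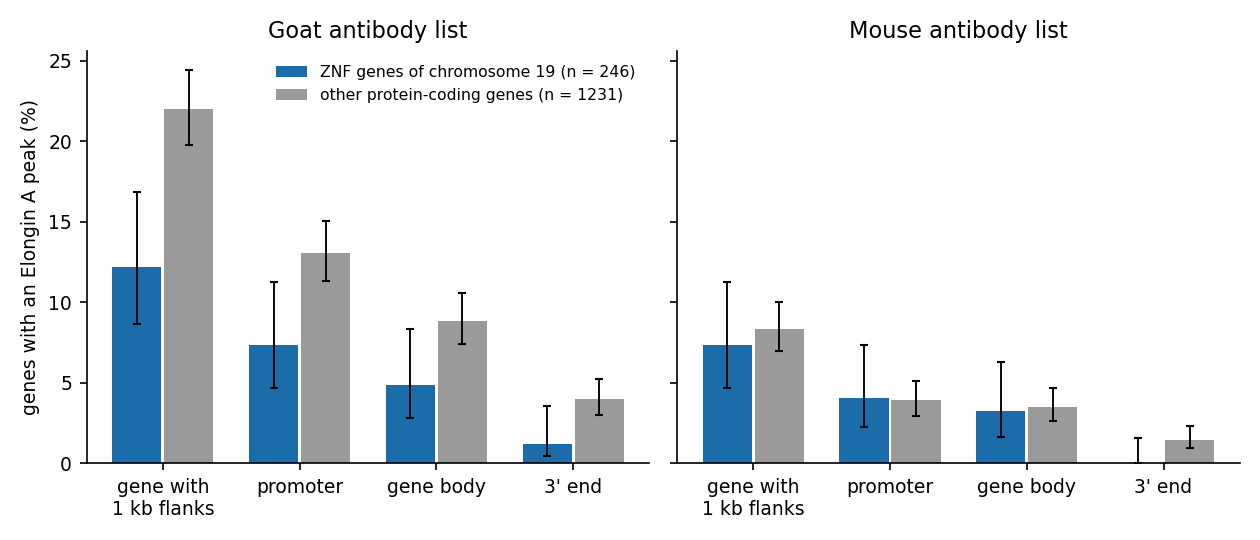
Share of genes with an Elongin A peak, in percent, for the 246 ZNF genes of chromosome 19 and the 1231 other protein-coding genes, by window and by list. Bars are shares and whiskers are 95% Wilson intervals. The ZNF genes stand at 12.2% against 22.0% in the goat list and at 7.32% against 8.37% in the mouse list.

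The ZNF genes are longer than their neighbours, with a median of 25.8 kb against 13.8 kb, and a longer gene offers more sequence to a peak. Counted by the sequence covered, the goat list held 3.65 peaks per Mb of ZNF genes with their flanks and 10.5 per Mb of the other genes. The mouse list held 2.01 and 3.17 per Mb. The genes of chromosome 19 were then divided into tertiles at 10.525 and 25.068 kb. In the shortest tertile 6 of 28 ZNF genes had a goat list peak, or 21.4% (10.2 to 39.5), and 17.0% of the others did. In the middle tertile the shares were 7.53% of 93 ZNF genes and 23.1% of the others. In the longest tertile they were 13.6% of 125 ZNF genes and 27.2% of the others. The gap was thus seen in the middle and longest tertiles. For the 28 short ZNF genes the difference was 4.44 percentage points in the other direction, with an interval of -7.37 to 22.82 that includes 0. The 6 short ZNF genes with a goat list peak were ZNF524, ZNF784, ZNF580, ZNF581, ZNF324 and ZNF446.

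**Figure D2:**
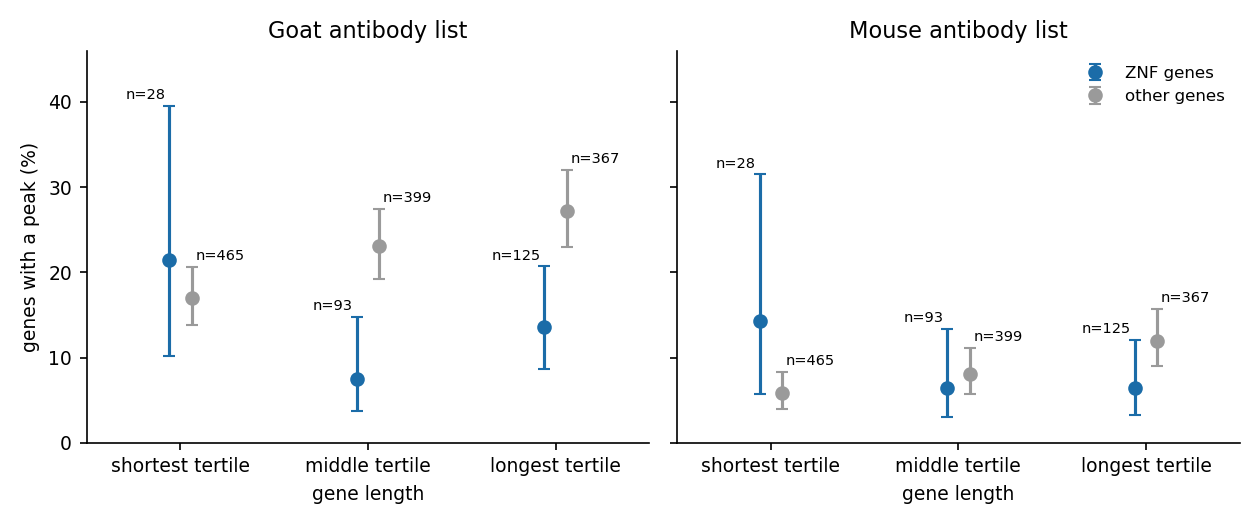
Share of genes with a peak, in percent, by tertile of gene length, for ZNF genes and other genes of chromosome 19. Points are shares, whiskers are 95% Wilson intervals and n is the number of genes. In the goat list the ZNF genes lie at 21.4%, 7.53% and 13.6% from the shortest to the longest tertile, and the other genes at 17.0%, 23.1% and 27.2%.

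A total of 29 goat list peaks and 16 mouse list peaks lay at ZNF genes. The fold enrichment of a peak is its height in reads relative to the control at that place, and it can be compared within 1 list only. It ran from 2.59 to 10.1 over the goat list peaks at ZNF genes, with a median of 4.89, where peaks at the other genes had a median of 4.54 and reached 25.7. Over the mouse list peaks it ran from 2.89 to 7.39 with a median of 4.47, where the others had a median of 4.34. Peaks that were present at ZNF genes thus lay in the same range as peaks at other genes. Of the 29 goat list peaks, 8 were shared by a pair of ZNF genes. A further overlap was with the comparison set, since 10 of the 29 also lay at one of its genes and count in both groups.

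**Figure D3:**
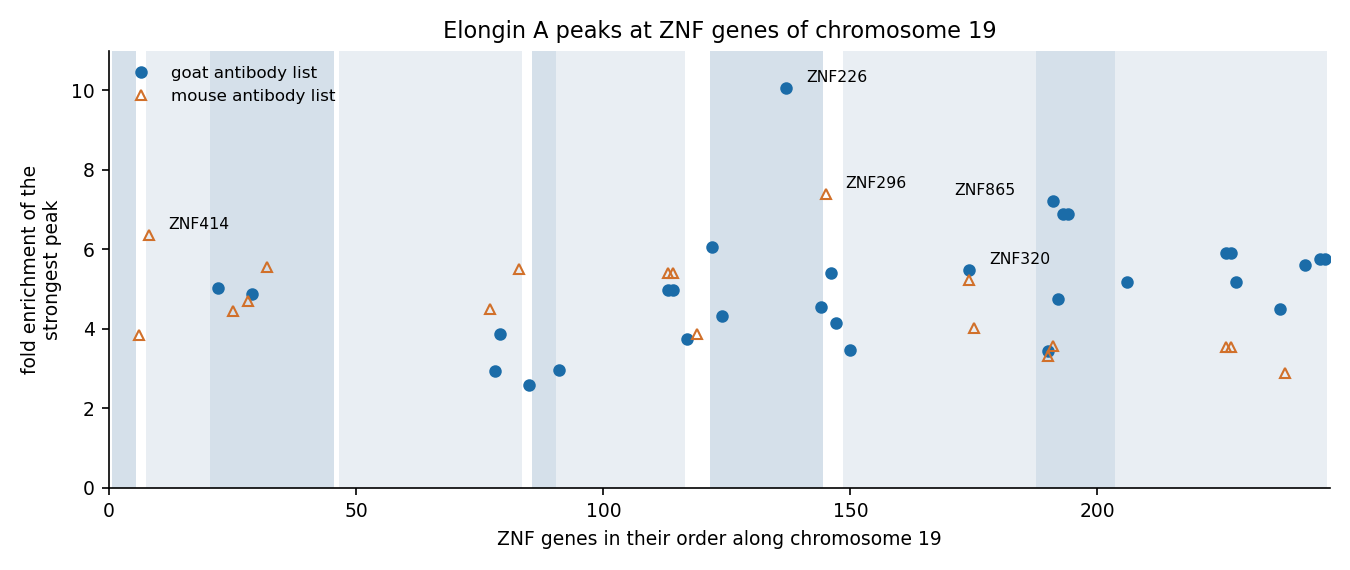
Fold enrichment of the strongest peak of each ZNF gene, with the 246 genes in their order along chromosome 19. Circles are goat list values, open triangles are mouse list values, a gene without a peak has no mark, neighbours that share a peak have a mark each, and shading marks the 10 neighbourhoods of 5 or more ZNF genes. ZNF226 stands highest at 10.1 in the goat list and ZNF296 at 7.39 in the mouse list.

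The strongest goat list peak lay upstream of ZNF226, at chr19:44668612-44669421, with a fold enrichment of 10.1 and rank 78 of the 8720 peaks. Its summit was 372 bp before the nearest annotated start of ZNF226, in the CpG-poor stretch printed above, and it also lay in the promoter of the long non-coding gene ENSG00000287035. The next highest goat list peak at a ZNF gene, that of ZNF865, had 7.21. The next promoter peak, at chr19:56153656-56154852, lay 343 bp before the start of ZNF581 with a fold enrichment of 6.90, and it was also the 3' end peak of ZNF580. ZNF580 and ZNF581 follow each other on the plus strand and shared 3 goat list peaks, more than any other ZNF gene except ZNF586. Those of ZNF586 lay 23820, 34161 and 38897 bp past the end of its canonical transcript. They counted only because other annotated transcripts of ZNF586 reach that far. The first of the 3 peaks shared by ZNF580 and ZNF581, at the start of ZNF580, had a fold enrichment of 6.26. The last, 488 bp into ZNF581, had one of 4.71.

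Further promoter peaks of the goat list stood close together in height. ZNF575 had a fold enrichment of 6.06, with the summit 169 bp upstream of a start. ZNF446 had 5.76 at 263 bp upstream, in a peak that was at the same time the 3' end peak of ZNF324. ZNF320 had 5.49, with the summit 1 bp upstream of an annotated start. ZNF587B had 5.19, ZNF460 had 5.17 and ZNF627 had 5.03. The ZNF627 peak lay in the promoter of ELOF1 too, the gene of another transcription elongation factor, and it was 38012 bp upstream of the canonical ZNF627 start, so it cannot be given to ZNF627 alone. ZNF540 and ZNF571, which are transcribed away from each other, shared 1 peak of 4.97. ZNF274, whose protein is known to bind the 3' ends of other ZNF genes, had a promoter peak of 4.49.

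The strongest gene body peak of the goat list was that of ZNF865, with a fold enrichment of 7.21 and rank 435. Its summit lay 577 bp inside the gene. ZNF581 followed at 6.26, in the peak at the start of ZNF580, with the summit 685 bp past a ZNF581 start. ZNF552 had 5.90, with the summit 136 bp inside, and ZNF584 had 5.61, with the summit 774 bp inside. ZNF541, a gene known for its role in meiosis, had 5.40 at 12141 bp from its start, in intron 2 of 16. The term gene body therefore covered peaks next to the start as well as peaks far inside. Of 15 gene body pairs of a ZNF gene and a goat list peak, 7 had the summit within 1 kb of a start of the same gene, and those genes were ZNF91, ZNF428, ZNF865, ZNF581 (with a pair of peaks), ZNF552 and ZNF584. In the mouse list it was 5 of 8 pairs, at ZNF414, ZNF69, ZNF878, ZNF254 and ZNF888. The 4 goat list pairs at a 3' end were ZNF580 with a pair of peaks, ZNF586 and ZNF324. Each of these 4 summits lay within 1 kb of a start of another protein-coding gene, namely ZNF581, ZNF552 and ZNF446.

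Measured to the nearest annotated start of any protein-coding gene, 23 of the 29 goat list peaks at ZNF genes had their summit within 1 kb, or 79.3% (61.6 to 90.2). At the other genes it was 176 of 298 peaks, or 59.1% (53.4 to 64.5). Peaks that lay at both a ZNF gene and another gene are counted in both groups. In the mouse list it was 14 of 16 peaks at ZNF genes, or 87.5% (64.0 to 96.5), and 58.9% at the other genes. The peaks of ZNF genes were thus mostly at starts, but of the 15 gene body pairs in the goat list 7 were beyond 1 kb of any start. Summits within 200 bp of a start made up 12 of the 29 goat list peaks and 12 of the 16 mouse list peaks at ZNF genes, against 93 of 298 and 19 of 90 at the other genes. Summits of promoter peaks lay upstream of the nearest start of their gene in 14 of 18 cases in the goat list, with a median of 172.5 bp upstream, and the share upstream was 77.8% against 77.5% at the other genes.

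**Figure D4:**
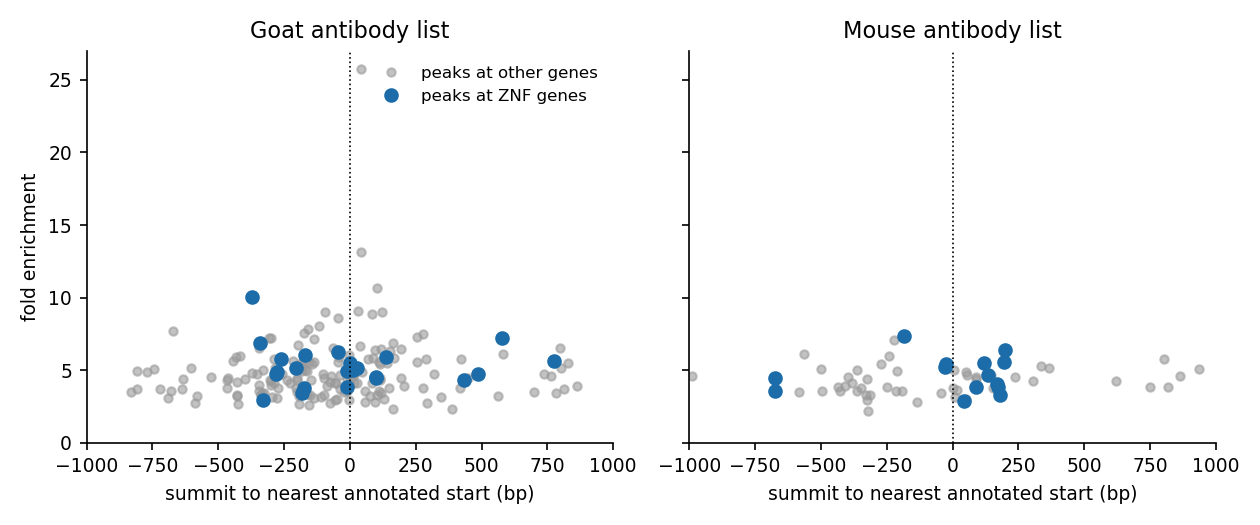
Fold enrichment of each peak whose summit lies within 1000 bp of an annotated start of a protein-coding gene, against the distance in bp, negative values being upstream. Blue points are the 23 goat list and 14 mouse list peaks at ZNF genes, and grey points are peaks at other genes. A peak at both kinds of gene is drawn in both colours, with blue on top. The blue points lie among the grey ones in height, with the ZNF226 peak at 10.1 the highest of them.

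The 6 goat list peaks beyond 1 kb of any start were few and mostly low. ZNF507 had one of 2.59 in intron 5 of 6, ZNF565 one of 2.97 in exon 5 of 5, and ZNF114 one of 4.15 in intron 3 of 5. That of ZNF541 was given above. The ZNF577 peak, of 3.47 and nearest to the start of FPR1, lay 59548 bp past the end of the canonical transcript and counted only because other annotated transcripts of ZNF577 reach that far. The last, of 4.57, lay in the stretch shared by ZNF586 and ZNF552. The ZNF565 peak was the only 1 of the 29 whose summit lay in the coding part of the last coding exon, where the fingers are usually encoded. By the peak centre there were 2, the other being the 3' end peak of ZNF580. None of the 16 mouse list summits or centres lay there.

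The mouse list led with other genes. ZNF296 had a fold enrichment of 7.39 and rank 34 of 2338, in a peak at chr19:45579760-45580035 with the summit 185 bp upstream of the start. ZNF414 had 6.38 and rank 106, with the summit 199 bp inside the gene. ZNF878 had 5.55, ZNF254 had 5.52 and the shared promoter of ZNF540 and ZNF571 had 5.41. Of these 6 genes only ZNF540 and ZNF571 had a goat list peak.

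Peaks of either CUT&RUN list lay at 41 ZNF genes, or 16.7%, against 24.6% of the other genes, and 7 ZNF genes had peaks of both. These 7 were ZNF540, ZNF571, ZNF320, ZNF524, ZNF865, ZNF586 and ZNF552, and they made up 23.3% of the goat list's ZNF genes and 38.9% of the mouse list's. Among the other genes the corresponding shares were 26.2% and 68.9%. The peaks themselves overlapped in 3 places. In the promoter of ZNF540 and ZNF571 the 2 summits were 12 bp apart, with fold enrichments of 4.97 in the goat list and 5.41 in the mouse list. At ZNF320 they were 27 bp apart, with 5.49 and 5.23. The third place lay 2646 bp past the end of canonical ZNF552 and 23820 bp past that of canonical ZNF586, by the goat list summit. It had 4.57 and 3.55 and summits 134 bp apart. The 32 bases around that mouse list summit occur in 4 places in the genome. At ZNF524 and ZNF865 the lists had separate peaks. For ZNF524 the goat list had 3.45 and the mouse list 3.31, both in the promoter that it shares with FIZ1. For ZNF865 the goat list peak of 7.21 was inside the gene and the mouse list peak of 3.57 was 676 bp upstream. Of the mouse list peaks at ZNF genes 18.8% overlapped a goat list peak, and of those at other genes 45.6% did.

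Near copies are a concern in this family, since a read from a copied exon can be placed at the wrong gene. In the last coding exons of the ZNF genes, 16.0% of sampled 32-base windows occurred more than once in the genome, against 7.72% in the other genes. In the promoters, taken here as 1000 bases before to 100 after the start of the canonical transcript, it was 11.9% against 12.4%. The summits at ZNF genes were nearly all in single-copy sequence. The exceptions were the goat list peak of ZNF700, whose 32 bases occur 3 times, and the mouse list peak shared by ZNF552 and ZNF586. With single-copy summits only, 11.8% of the ZNF genes kept a goat list peak and 6.50% a mouse list peak. How many reads at finger exons were lost or misplaced was not tested.

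Along the chromosome the ZNF genes fell into 20 neighbourhoods, with less than 500 kb between a gene and the next, and 10 of these held 5 or more. The 10 larger ones together held 232 ZNF genes. The largest held 43 genes from ZNF264 to ZNF446, near the end of the long arm, and 8 of them had a goat list peak, as did 3 of the 22 other genes there. The share over all genes compared was 20.4%. The 8 were ZNF460, ZNF586, ZNF552, ZNF587B, ZNF274, ZNF584, ZNF324 and ZNF446. The neighbourhood from ZNF175 to ZNF331 held 39 genes, of which ZNF577 and ZNF320 had a goat list peak, as did 1 of 14 other genes. That from ZNF101 to ZNF254 held 37 genes over 4.53 Mb, of which ZNF724 and ZNF91 had one, as did 1 of 3 other genes. The 16 genes from ZNF628 to ZNF835 included 5 with a goat list peak, namely ZNF524, ZNF865, ZNF784, ZNF580 and ZNF581, and 5 of the 24 other genes there had one.

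Genes of the comparison set that lie in the same neighbourhoods were also seldom occupied in the goat list. Of 108 such genes 14 had a goat list peak, or 13.0% (7.88 to 20.6), and 26 of the 232 ZNF genes there did, or 11.2% (7.76 to 15.9). The 108 include zinc finger genes with other symbols, such as ZFP14, ZIK1 and ZSCAN4. Some of the 14 were counted through a peak shared with a ZNF gene, as FIZ1 was with ZNF524. The 2 groups are thus separate neither in kind of gene nor in peaks. The difference inside the neighbourhoods was -1.76 percentage points, with an interval of -10.12 to 5.17. Of the 1123 other genes outside, 22.9% (20.5 to 25.4) had one. In the mouse list the shares were 6.47% of the ZNF genes inside, 8.33% of the other genes inside and 8.37% of those outside. Of the 14 ZNF genes outside these neighbourhoods, 4 had a goat list peak, or 28.6% (11.7 to 54.6), namely ZNF507, ZNF546, ZNF541 and ZNF114. A mouse list peak was present at 3 of the 14, or 21.4% (7.57 to 47.6). The low share of the goat list was thus not seen in these few genes, whose intervals are wide. The comparison inside neighbourhoods was chosen after the first values were seen.

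**Figure D5:**
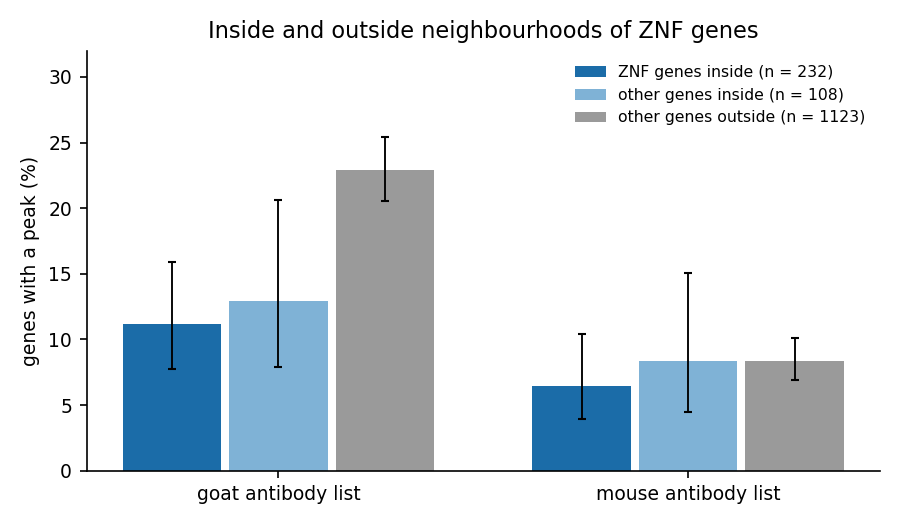
Share of genes with a peak, in percent, for the ZNF genes and the other genes inside the 10 neighbourhoods of 5 or more ZNF genes and for the other genes of chromosome 19 outside them. Bars are shares and whiskers are 95% Wilson intervals. In the goat list both groups inside lie low, at 11.2% and 13.0%, and the genes outside at 22.9%.

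The promoters of the ZNF genes were set beside those of all protein-coding genes of chromosome 19, over the same 300 bases. These ran from 250 before to 50 after the start of the canonical transcript. They differed most in the sequence CCGGAAG, the core bound by ETS factors, searched on both strands. It was in 110 of 246 ZNF promoters, or 44.7%, against 15.2% of the other promoters and 20.1% of all. The 2 promoters below are from hg19 and read in the direction of the gene, with the match in capitals. ZNF226 is on the plus strand at chr19:44669003-44669302, and ZNF320 is on the minus strand at chr19:53400839-53401138. They are shown because ZNF226 has the strongest goat list peak and ZNF320 has a peak in both lists.
ZNF226 promoter: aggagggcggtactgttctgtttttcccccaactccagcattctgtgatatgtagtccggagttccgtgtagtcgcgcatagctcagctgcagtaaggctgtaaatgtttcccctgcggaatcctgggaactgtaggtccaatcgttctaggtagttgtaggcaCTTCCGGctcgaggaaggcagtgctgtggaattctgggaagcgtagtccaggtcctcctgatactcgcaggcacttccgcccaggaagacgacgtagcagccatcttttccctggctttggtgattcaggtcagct
ZNF320 promoter: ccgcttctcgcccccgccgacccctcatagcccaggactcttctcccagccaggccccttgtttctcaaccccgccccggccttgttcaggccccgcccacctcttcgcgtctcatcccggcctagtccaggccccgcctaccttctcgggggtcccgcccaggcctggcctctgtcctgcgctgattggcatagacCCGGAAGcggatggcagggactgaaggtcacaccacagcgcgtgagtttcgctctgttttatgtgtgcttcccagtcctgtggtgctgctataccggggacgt
The match begins 86 bases before the start of ZNF226, on the reverse strand, and 53 bases before that of ZNF320, on the forward strand. The ZNF226 peak covers the match, but its summit, at position 44668854, lies outside the printed stretch. The ZNF320 match lies outside both ZNF320 peaks, which end at 53400909 in the goat list and 53400867 in the mouse list.

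Promoter peaks of the goat list were about as frequent at ZNF genes with the sequence as at those without it. A goat list promoter peak was present at 7.27% of ZNF genes with CCGGAAG and at 7.35% of those without it. Among the other genes the shares were 18.2% and 12.2%. A mouse list promoter peak was present at 5.45% of ZNF genes with CCGGAAG (2.52 to 11.4) and 2.94% of those without it (1.15 to 7.32). Of the 7 further sequences searched, CCAAT was in 52.8% of ZNF promoters and 39.7% of all promoters of the chromosome, GGGCGG (the GC box) in 67.1% and 66.3%, and TATAAA in 3.25% and 6.97%. AAGATGGC, the core of the YY1 site, was in 6.50% and 6.09%. GCATGCGC was in 4.47% and 5.21%, TGACGTCA in 3.66% of each, and TCTCGCGA in 1.22% and 1.15%. None of these sequences contains another. Around the summits themselves, in 200 bases centred on those within 1 kb of a start, GGGCGG was in 5 of 23 goat list stretches at ZNF genes and in 65 of 176 at the other genes. The intervals of these shares, 9.66 to 41.9% and 30.2 to 44.3%, overlap. In the mouse list GGGCGG was in 5 of 14 and 23 of 53. CCAAT was in 6 of 23 and 57 of 176 goat list stretches, and in 2 of 14 and 13 of 53 mouse list stretches. A match is a run of letters and not a shown binding site.

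Promoters were also compared at like CpG content. ZNF promoters had a median of 20 CpG in 300 bases, close to the 21 of the others, but over a narrower range, with quartiles of 15 and 25.75 against 9 and 31. The promoters of the chromosome were divided into tertiles at 14 and 27 CpG. In the lowest tertile 6.67% of 60 ZNF genes and 4.99% of the others had a goat list promoter peak. In the middle tertile the shares were 7.09% of 141 ZNF genes (3.90 to 12.6) and 18.9% of the others (15.3 to 23.2). In the highest they were 8.89% of 45 ZNF genes (3.51 to 20.7) and 16.4% of the others (13.2 to 20.3), with intervals that overlap. The mouse list shares in the highest tertile were 8.89% of ZNF genes and 5.24% of the others, and in the middle tertile 3.55% and 5.95%. The intervals of the goat list thus stood apart in the middle tertile only.

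The genes through which KRAB proteins act were looked at as a list of 16. In the goat list 6 of them had a peak, or 37.5% against 21.7% of all protein-coding genes, and in the mouse list 3, or 18.8% against 7.79%. With only 16 genes these shares are imprecise, and whether they differ from those of all genes was not tested. CBX5, which encodes HP1 alpha, had a promoter peak with a fold enrichment of 14.5 and rank 19 of the goat list, and a promoter peak of 4.71 in the mouse list. CBX3, which encodes HP1 gamma, had a goat list promoter peak of 8.89. Both goat list peaks lay mostly outside these genes. The CBX5 peak spanned chr12:54673633-54678388, and the gene chr12:54624726-54673917. The CBX3 peak spanned chr7:26234797-26241084, and the gene chr7:26240782-26253227. Their centres lay beyond the 1 kb flank and were moved to its edge, and to which gene these peaks belong was not tested. TRIM28, the partner of the KRAB domain and itself a gene of chromosome 19, had a low promoter peak of 3.28. CHD4, the remodelling subunit of NuRD, had one of 3.16. The histone deacetylase gene HDAC1 had a gene body peak of 5.95, and UHRF1, whose protein guides maintenance methylation, one of 4.56 in the goat list with mouse list peaks of 4.82 and 3.85. CBX1 had a gene body peak of 4.85 in the mouse list. SETDB1, ATF7IP, MPHOSPH8, TASOR, PPHLN1, MORC2, DNMT1, SMARCAD1 and ATRX had no peak in any of the 3 lists. Of 18 genes of chromosome 19 with a ZFP, ZSCAN, ZBTB, ZIM or ZIK symbol, ZFP36, ZSCAN5A and ZBTB45 had a goat list peak, of 4.32, 2.94 and 3.48. They make up 16.7% of the 18, where 20.4% of all genes of chromosome 19 compared had one. None of the 18 had a mouse list peak, where 8.19% of all genes compared did. With 18 genes these shares are imprecise.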

How the data were processed

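Elongin A was mapped in DLD1 cells by CUT&RUN and ChIP-seq. Per the methods, the authors used Bowtie2 (2.3.4.1) for alignment to hg19, Picard (1.88) for PCR duplicates and MACS2 (2.1.1, default settings, IgG or input as control) for peaks. No filter on mapping quality is stated, nor how the 2 goat antibody replicates were combined. The deposited fold enrichment is the authors' ratio of peak pile-up to control. The deposited −log10 q-value of the authors' caller was used only for stricter alternatives. Depth is unknown, since the lists hold no read totals.

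Peaks were set against GENCODE release 44 lifted to GRCh37, with positions counted from 1 and an overlap of 1 bp. A peak was classed by its centre, moved to the edge of the gene with 1 kb either side where it lay outside. Promoter windows took priority over 3' ends, and every annotated transcript of a gene counted. The canonical transcript gave exons and promoter sequence. Copies of the 32 bases around each summit, and of windows taken every 10 bases, were counted in the genome on both strands. No test was run, because 1 list per antibody has no spread between replicates. The pairing of genes with peaks was tested on simulated data.

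Named genes are those with a peak in both CUT&RUN lists, the 10 highest promoter peaks and the 5 highest gene body and 3' end peaks of the goat list, the 5 genes with most goat list peaks, the 5 highest of the mouse list, and genes of the KRAB list or of a named neighbourhood. Other genes named were chosen after their values were seen. The genes and lists were chosen with earlier results of these data known. Protein features were planned only for a given protein table and are not analysed here, and neither are the study's RNA experiments or its RNAPII ChIP-seq. Scripts used Python 3.11.15, pandas 2.3.3, numpy 2.4.6, scipy 1.17.1 and matplotlib 3.10.9.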

Additional observations from a re-analysis of the deposited data

How the results depend on the processing

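No paired analysis was possible because each peak list stands for its whole group and carries no replicates, and no replicate was left out for the same reason. In the goat list the share of ZNF genes with a peak stayed below that of the other genes under all 16 alternatives of peaks, windows and genes tried (those that only redraw windows inside a gene leave it as it is), with differences from -15.18 to -1.76 percentage points, and reversed to 4.44 in the shortest length tertile only. The middle tertile gave -15.53. A flank of 5 kb gave -15.18. A fold enrichment of at least 5 gave -3.73, with 6.10% of ZNF genes occupied, and -1.05 for promoters, with 3.66%. Within the neighbourhoods of ZNF genes, an alternative added after the data were seen, the difference was -1.76, that of promoters -1.01 and that of 3' ends 0.37. With the outer ends of genes in place of all transcripts, 4.07% of ZNF genes had a goat list promoter peak. In the mouse list the difference was 8.48 in the shortest tertile and -5.59 in the longest. The Wilson intervals of the shares overlap in both. In the shortest tertile they were 5.70 to 31.5% for ZNF genes and 4.02 to 8.32% for the others. In the longest they were 3.28 to 12.1% and 9.05 to 15.7%. Mouse list shares moved to 3.66% at a q-value under 0.001 and 2.85% at a fold enrichment of at least 5, and the promoter share to 1.63% under either of these and without a flank. The sign of the mouse list promoter difference changed between alternatives, from -1.61 to 1.14. The cause of these changes was not tested. The unknown depth limits all statements on genes without a peak.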
